A study of Mus musculus with 2 samples.

Results

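The cells described here are 222 of 15174 kept cells from mouse knee joints (1.46%, exact Clopper-Pearson 95% interval 1.28% to 1.67%), selected for transcripts of mural cells, the pericytes and smooth muscle cells that wrap blood vessels. A kept cell had at least 500 genes, at least 1000 unique molecular identifiers (UMIs, each counting 1 captured transcript) and at most 10% of UMIs from mitochondrial genes. A selected cell had at least 1 UMI of at least 3 of the 7 mural genes Rgs5, Myh11, Kcnj8, Abcc9, Notch3, Higd1b and Mcam. It also had no UMI of Ptprc, the leukocyte gene CD45, and fewer than 3 of the 6 endothelial genes Pecam1, Cdh5, Kdr, Emcn, Egfl7 and Cldn5. Of 300 kept cells with 3 or more mural genes, 14 were left out for Ptprc and 64 for the endothelial genes. The levels of these 14 genes chose the cells and are given below as a description only.

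The joints came from wild-type mice and from Col12a1 knockout mice, which lack collagen XII, at postnatal day 7 and of both sexes. Digestion took 6 h in 4 mg/mL collagenase II, and 10x Genomics v3 droplet libraries of transcript 3' ends came from 2 experiments, with 1 and 2 libraries per genotype. Skin and paws had been removed, and whether animals were pooled in a library is not stated in the labels. The deposited matrix is a single merged table in which each barcode ends in 1 or 2, here called barcode sets 1 and 2, and the labels do not say which genotype, experiment or animal either set holds. Cells of both genotypes are therefore described together, the genotypes were not compared, and the values of the sets stand side by side without being replicates of a group. Set 1 held 102 selected cells of 7160 kept (1.42%) and set 2 held 120 of 8014 (1.5%). No cell barcode of a selected cell occurred among the kept cells of the other set, although 14 barcodes of kept cells did. With 1 merged sample there is no replicate error and no test. Intervals cover counting error alone.

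Pericytes sit on capillaries within the basement membrane they share with endothelial cells, and vascular smooth muscle cells form contractile layers around arterioles and larger vessels. Both are recruited to new vessels by endothelial PDGF-B acting on their receptor PDGFRB, and Notch3 signalling maintains them. Pericytes are known for the ATP-sensitive potassium channel made of Kcnj8 and Abcc9, and smooth muscle cells for contractile proteins such as smooth muscle actin (Acta2), transgelin (Tagln), calponin (Cnn1) and smooth muscle myosin (Myh11).

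The selected cells did not share a single profile. Of 8 fibroblast markers (Pdgfra, Dpt, Clec3b, Pi16, Scara5, Lum, Dcn and Abca8a), 59 selected cells held none, 24 held 1 and 15 held 2. Only 6 cells held 3 and 6 held 4, while 20, 43, 34 and 15 cells held 5, 6, 7 and 8. The 98 cells with fewer than 3 are called fibroblast-marker-low cells below, and the 124 with 3 or more fibroblast-marker-high cells. This limit was chosen after the data had been seen, and it parts a range of cells, not types. Near it lay the 15 cells with 2 markers and the 6 with 3. The low cells were 45 of 102 in set 1 (44.1%) and 53 of 120 in set 2 (44.2%).

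**Figure D1:**
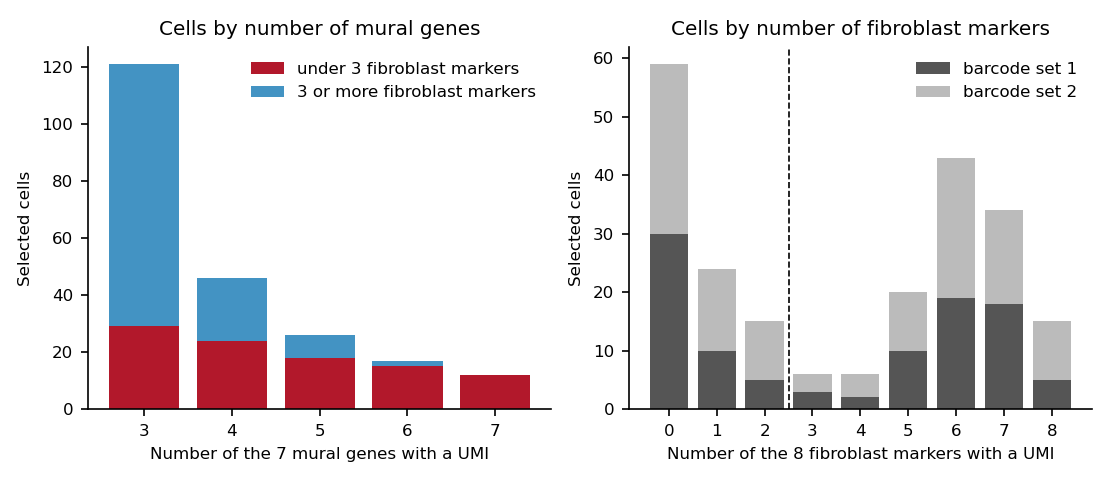
The left panel counts selected cells by how many of the 7 mural genes had a UMI, coloured by the number of fibroblast markers. The right panel counts them by how many of the 8 fibroblast markers had a UMI, stacked by barcode set, with the limit of 3 dashed. All 12 cells with 7 mural genes held under 3 fibroblast markers, against 29 of the 121 cells with 3 mural genes.

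The 124 fibroblast-marker-high cells are called selected cells only, and not pericytes or smooth muscle cells. Levels are given as CPM, counts scaled to a class total of 1e+06 UMIs. Among genes that neither the rule nor the split used, Acta2 was at 105 CPM in high and 7198 CPM in low cells, and Pdgfrb at 75.1 and 246 CPM. The collagen gene Col1a1 went the other way, at 18226 CPM in high and 1104 CPM in low cells. In 2822 fibroblast comparison cells these genes were at 10.4, 40.8 and 7967 CPM. On these genes the high cells thus stood nearer to fibroblasts than to low cells, which goes against the label for them. Fibroblast comparison cells had 3 or more fibroblast markers, no Ptprc, and fewer than 3 markers each of mural, endothelial, cartilage, bone, tendon, Schwann and skeletal muscle cells. The sums of the markers themselves follow from these definitions and are a description. The 8 fibroblast markers summed to 164 CPM in low, 7457 CPM in high, 7600 CPM in fibroblast comparison and 796 CPM in 607 B cell comparison cells. The mural markers Rgs5, Myh11, Kcnj8, Abcc9, Notch3 and Higd1b summed to 5851 CPM in low, 404 CPM in high and 57.2 CPM in fibroblast comparison cells. With all cells thinned to 2000 UMIs, Dcn was detected in 4.17% of low cells, 91.9% of high cells and 7.90% of B cell comparison cells. Pdgfra and Scara5 had no UMI in any low cell.

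Depth differed between the same cells. The median was 9140.5 UMIs in low cells (range 1152 to 64963), 22172 in high cells (6213 to 169222), 11102.5 in fibroblast comparison cells and 10146.5 in all kept cells. When every cell was thinned to 2000 UMIs and the rule applied again, 66 of 14480 cells were selected. These included 52 of the 98 low cells and 7 of the 124 high cells. At the full depth, 22 high and 4 low cells lay above the 95th percentile of kept cells (38100.3 UMIs). No doublet caller was run, and the part of doublets in the high cells was not tested.

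The cells were also set out by the number of mural genes, with which the levels of those genes, Rgs5 included, go by construction. Of the 121 cells with exactly 3 mural genes, 24.0% held under 3 fibroblast markers. With 4, 5, 6 and 7 mural genes the share was 52.2%, 69.2%, 88.2% and 100%. Just outside the rule, the 439 kept cells with 2 mural genes had 43.9 CPM of Rgs5, 255 CPM of Acta2 and 3744 CPM of Dcn. Just inside it, the cells with 3 mural genes had 79.2, 927 and 4423 CPM of these genes. The cells with all 7 had 7884 CPM of Rgs5, 10986 CPM of Acta2, 5.40 CPM of Dcn and no UMI of Pdgfra. The commonest combination among high cells was Kcnj8, Abcc9 and Notch3 with nothing else (30 of 124), and among low cells Rgs5, Myh11, Notch3 and Mcam (16 of 98).

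**Figure D2:**
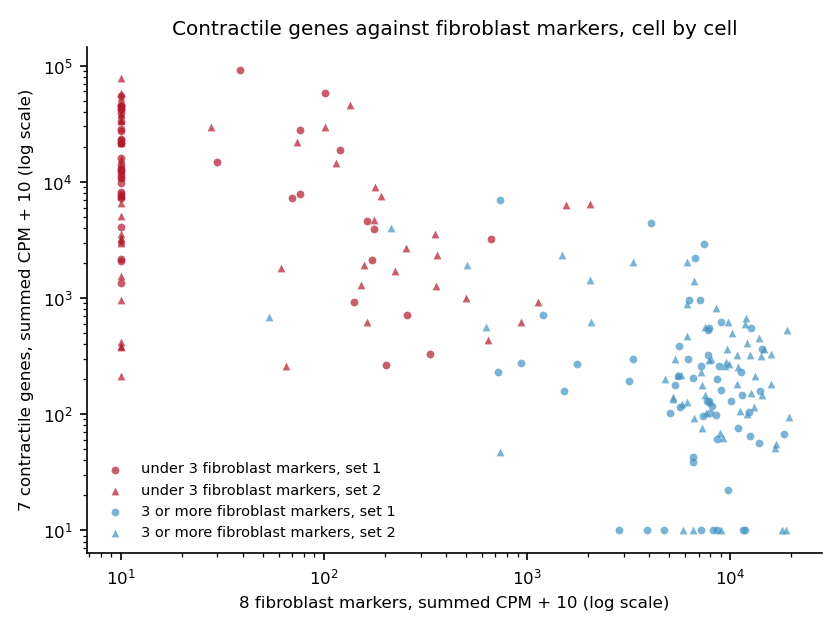
Each point is a selected cell, with the summed CPM of the 8 fibroblast markers on the horizontal axis and of 7 contractile genes (Acta2, Tagln, Cnn1, Myl9, Tpm2, Mylk and Lmod1) on the vertical axis, both with 10 CPM added and on log scales. Colours mark the number of fibroblast markers and shapes the barcode set. The median contractile sum was 12711 CPM in set 1 and 5088 CPM in set 2 for low cells, and 148 and 245 CPM for high cells, with ranges that overlap.

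Markers of other cell types were counted in the same way. The endothelial markers are those of the rule, which leaves no selected cell with 3 of them, and they summed to 18.4 CPM in low cells (Cdh5 at 0). In low cells, 0 of 98 held 3 or more markers of osteoblasts (32.0 CPM) or synovial lining cells (32.0 CPM, Clic5 at 0). The same held for neutrophils (34.4 CPM, Mmp8 and Cxcr2 at 0), macrophages (8.80 CPM, C1qa, C1qb and Adgre1 at 0) and mast cells (12.8 CPM, Mcpt4, Fcer1a and Tpsb2 at 0), and 1 low cell held 3 B cell markers (7.20 CPM). Muscle progenitor markers (Pax7, Myf5, Myod1, Chodl, Cdh15 and Myog) reached 3 in 9 low and 4 high cells. They summed to 218 CPM in low, 161 CPM in high, 10.1 CPM in fibroblast comparison and 123 CPM in all other kept cells. The fibroblast comparison cells were limited to fewer than 3 of these markers and the selected cells were not, so their low sum follows in part from the definition. Tenocyte markers reached 3 in 3 low cells (266 CPM) and 7 high cells (1004 CPM). Chondrocyte markers reached 3 in 1 low cell (121 CPM, Cnmd at 0) and 16 high cells (1087 CPM), and a single high cell held 93270 CPM of them. In the high cells, osteoblast markers reached 3 in 7 cells (137 CPM), neutrophil markers in 6 (28.9 CPM), synovial lining markers in 5 (464 CPM, against 947 CPM in fibroblast comparison cells) and macrophage markers in 1. Erythroid and skeletal myofibre markers were found in many cells of most classes. They reached 3 in 60 and 38 of the 98 low cells, 83 and 54 of the 124 high cells, and 323 and 237 of the 607 B cell comparison cells. Leaving out every selected cell with 3 or more markers of another class, other than those 2 classes, removed every high cell, since fibroblasts are one of those classes, and kept 86 of the low cells. In these, 25 contractile genes were then higher than in fibroblast comparison cells. The part of these markers in the other results below was not tested.

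The mural genes of the rule, given as a description, differed in level between low and high cells and between sets. Rgs5, a regulator of G protein signalling, was at 2717 and 4507 CPM in low cells of sets 1 and 2, in that order here and below, against 115 and 161 CPM in high cells and 26.1 CPM in fibroblast comparison cells. Myh11 was at 1307 and 944 CPM in low cells and at 11.2 and 6.34 CPM in high cells. Kcnj8, the pore of the potassium channel, was at 70.7 and 228 CPM in low cells and 47.3 and 90.2 CPM in high cells. Its regulatory subunit Abcc9, which lies beside it on chromosome 6 (chr6:142564837-142571614 and chr6:142587862-142702315 in mm10), was at 258 and 487 CPM in low and 78.1 and 107 CPM in high cells. The pericyte-associated genes of the rule (Rgs5, Kcnj8, Abcc9 and Higd1b) were higher in set 2 than in set 1 in low cells, and Myh11 was higher in set 1. The adhesion gene Mcam was at 251 and 279 CPM, and the receptor gene Notch3 at 544 and 549 CPM, in low cells of sets 1 and 2. Higd1b had few UMIs, with 26.7 and 97.8 CPM in low cells and 2.14 CPM in high cells.

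Of the 13 gene lists, the contractile genes had the highest median ratio between low cells and fibroblasts. A gene was counted as higher or lower where both sides together had at least 100 UMIs, the ratio of CPM was at least 2 or at most 0.5, its exact conditional binomial 95% interval left out 1, and both sets had the same direction. By this rule 25 of the 26 contractile genes that reached 100 UMIs, of 28 listed, were higher in low cells than in fibroblast comparison cells, and 0 were lower. The genes under that minimum were Pln and Rergl. Where a gene was sparse in the comparison cells, it reached 100 UMIs only by being high in the selected cells. Counts of higher genes here and below therefore follow in part from that minimum. The 26 had a median log2 ratio of 5.81. Of all 11721 genes compared, 16.1% were higher and 11.3% lower, with a median of 0.14. Acta2 (chr19:34241090-34255590, minus strand, mm10) was at 8781 and 5555 CPM in low cells, and at 9.74 and 11.5 CPM in the fibroblast comparison cells. The ratio was 690.1 (interval 625 to 763). After thinning, Acta2 was detected in 77.1% of low cells and in 1.97% of B cell comparison cells. Both sets of low cells thus lay far above both sets of fibroblasts. Tagln was at 6381 and 3039 CPM in low cells and 14.9 and 9.39 CPM in fibroblast comparison cells, a ratio of 372. Cnn1, an actin-binding regulator of contraction, was at 396 and 140.2 CPM in low cells and 0.577 CPM in fibroblast comparison cells (ratio 469). Leiomodin 1 (Lmod1), which nucleates actin filaments in smooth muscle, was at 154 CPM against 0.376 CPM (ratio 411). Myocardin (Myocd), the coactivator that drives smooth muscle genes with serum response factor, was at 124 and 50.5 CPM in low cells (ratio 85.6). The sole member not counted was vimentin (Vim), an intermediate filament gene of most mesenchymal cells, at 3126 CPM against 2341 CPM. Desmin (Des) was higher by 10.7-fold, and the muscle progenitor and myofibre markers given above stand beside it, since desmin is also a skeletal muscle gene. The fibroblast comparison cells were limited in those markers and the low cells were not, so part of this ratio may follow from the definition.

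Smooth muscle genes are known targets of serum response factor, which binds the CArG box, and the promoters of the contractile list were searched for it on both strands. RefSeq windows from 250 bases before to 50 bases after the start (GRCm38.p6) were at hand for 24 of the 28 list genes, and 3 of them held the motif (12.5%), against 488 of 27025 genes with a window (1.81%). The motif was not particular to this list: 2 of 14 immediate early genes held it (14.3%), as did 1 gene each in 5 other lists of 15 to 22 windows, and none in the remaining 6 lists. The 3 matches are shown with 10 bases on either side and the CArG box in capitals, because they belong to genes of the group just described. All 3 lie before the start, at chr2:156775293-156775322 (plus strand) for Myl9, chr10:128493040-128493069 (minus strand) for Myl6 and chr6:139501939-139501968 (minus strand) for Rergl.
Myl9: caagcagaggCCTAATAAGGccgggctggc
Myl6: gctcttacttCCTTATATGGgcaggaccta
Rergl: acaaggacagCCATAAAAGGcactttcaaa
The boxes begin 161, 50 and 49 bases before the respective starts. Myl9, the regulatory light chain of smooth muscle myosin, was at 2626 and 1692 CPM in low cells, 102 and 90.2 CPM in high cells and 18.4 CPM in fibroblast comparison cells, a low-to-fibroblast ratio of 118. Rergl had 18.9 and 13.0 CPM in low cells and no UMI in the fibroblast comparison cells, too few UMIs for a count. Myl6, a light chain of both muscle and other myosins, was at 3382 and 2501 CPM in low cells and 664 CPM in fibroblast comparison cells. A match describes the letters of the window and not binding.

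**Figure D3:**
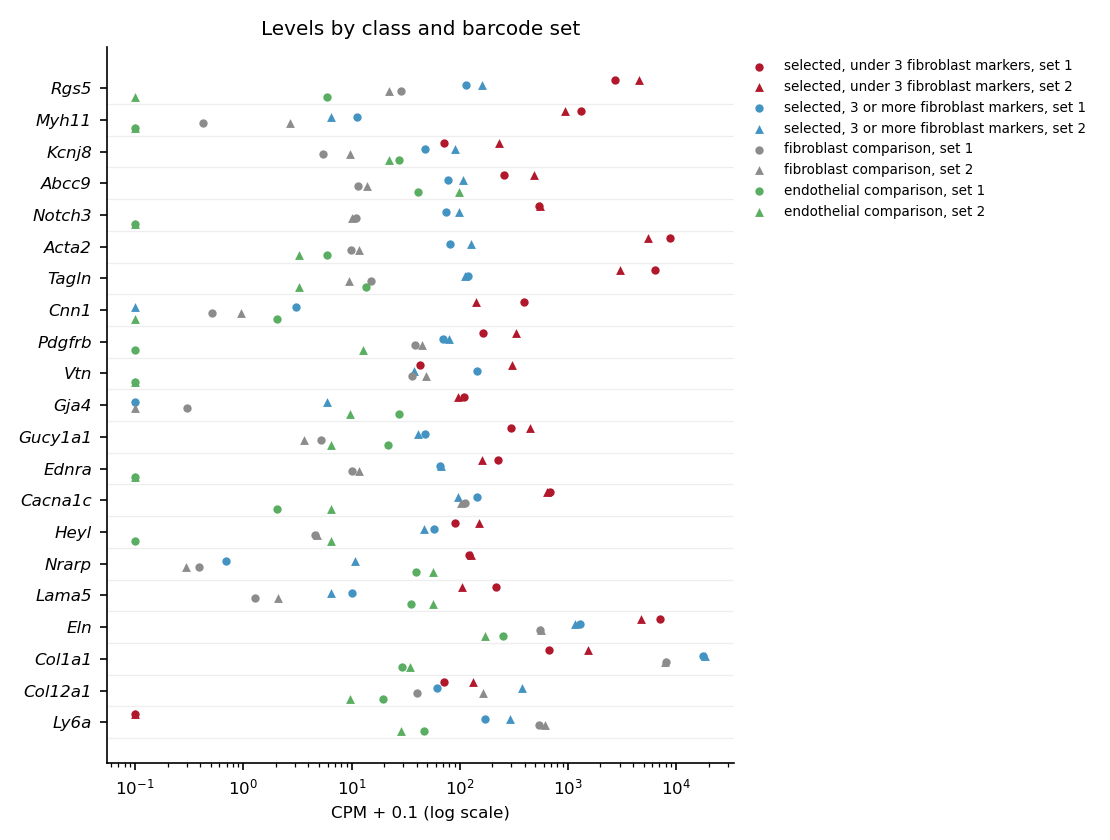
CPM plus 0.1 on a log scale for 21 genes in low, high, fibroblast comparison and endothelial comparison cells, with circles for barcode set 1 and triangles for set 2. Points at the left edge have no UMI. Low cells lie to the right for contractile, Notch and elastin genes and for pericyte genes other than Kcnj8 and Vtn. For those 2 genes the set 1 point of low cells lies among the points of other classes. Low cells lie at the left edge for Ly6a, while Col1a1 is highest in the high cells.

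Pericyte-associated genes were split. In low cells 13 of the 20 that reached 100 UMIs, of 22 listed, were higher and 3 lower than in fibroblast comparison cells, with a median log2 ratio of 1.83. Over all genes compared, 16.1% were higher and 11.3% lower. Pdgfrb, the receptor for endothelial PDGF-B, was at 165 and 329 CPM in low cells, 69.8 and 79.4 CPM in high cells and 38.3 and 44.9 CPM in fibroblast comparison cells. The low-to-fibroblast ratio was 6.01 (interval 5.31 to 6.80), and both sets of low cells lay above both sets of fibroblasts. The gap junction gene Gja4, which arteriolar cells use, had 108 and 96.2 CPM in low cells and 0.125 CPM in fibroblast comparison cells, a ratio of 817 (interval 341 to 2559) that rests on few fibroblast UMIs. A pair of respiratory subunit genes regulated by oxygen were both higher: Cox4i2 was at 62.9 and 241 CPM against 1.93 CPM (ratio 77.9), and Ndufa4l2 at 234 and 567 CPM against 29.99 CPM (ratio 13.3). Vitronectin (Vtn) and Art3 were uneven between sets. Vtn was at 42.4 and 305 CPM in low cells, so that its ratio to fibroblasts was 1.17 in set 1 and 6.22 in set 2. Art3, an ADP-ribosyltransferase gene, was at 61.3 and 295 CPM, with ratios of 4.42 and 25.7. The proteoglycan gene Cspg4, which encodes the pericyte antigen NG2, was also found in fibroblasts, at 64.4 CPM against 169.6 CPM in low cells (ratio 2.63). The 3 lower genes were Anpep, Cd248 and Postn, with ratios of 0.466, 0.203 and 0.166. All 3 are also expressed by fibroblasts.

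Genes of vascular tone followed. Among vasoactive receptors and cyclic nucleotide genes, 17 of 33 measured (45 listed) were higher and 6 lower in low cells than in fibroblast comparison cells, and among ion channels and pumps 11 of 18 measured (26 listed) were higher and 2 lower. For both lists the background was 16.1% higher and 11.3% lower. Gucy1a1, a subunit of the nitric oxide receptor guanylate cyclase, was at 299 and 442 CPM in low cells, 47.9 and 40.9 CPM in high cells and 5.11 and 3.56 CPM in fibroblast comparison cells (low-to-fibroblast ratio 81.7). Its partner Gucy1b1 had a ratio of 27.0, and the kinase activated by the product cyclic GMP, Prkg1, a ratio of 20.9 at 1393 CPM. The phosphodiesterase gene Pde3a was at 718 and 660.3 CPM in low cells against 91.4 CPM, a ratio of 7.55. The nitric oxide to cyclic GMP chain was thus higher at its receptor and its kinase. Ednra, the endothelin receptor of smooth muscle, was at 228 and 159.8 CPM in low cells and had a ratio of 18.2 to fibroblast comparison cells. The other endothelin receptor gene, Ednrb, was higher than in fibroblasts (34.8-fold) but lower than in endothelial comparison cells (ratio 0.465). Of the channels, the L-type calcium channel Cacna1c had a ratio of 6.08 and the receptor-operated channel Trpc6 of 49.3 (27.1 without the cell with the most UMIs of it). The calcium release channel Ryr2 was at 75.4 and 84.8 CPM (ratio 118). Piezo1, a mechanosensitive channel, was lower in low cells, at 62.4 CPM against 133 CPM.

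Notch genes other than Notch3 were counted apart from the rule. Of 9 that reached 100 UMIs, of 16 listed, 5 were higher in low cells than in fibroblast comparison cells (Hey1, Heyl, Jag1, Notch1 and Nrarp) and 0 were lower, with a median log2 ratio of 1.98. Among all genes compared, 16.1% were higher and 11.3% lower. Nrarp, sparse in fibroblasts, reached 100 UMIs only through low cells, so the count of higher genes follows in part from that minimum. Heyl, a target of Notch3 in mural cells, was at 120.03 CPM in low, 51.8 CPM in high and 4.59 CPM in fibroblast comparison cells. The ratio to fibroblasts was 26.2 for low cells (20.3 and 31.7 in sets 1 and 2) and 11.3 for high cells (12.9 and 9.90), so this gene separated both groups of selected cells from fibroblasts. Nrarp, a feedback inhibitor of Notch, was at 121 and 127 CPM in low cells against 0.251 CPM, a ratio of 495 (interval 262 to 1052). The ligand gene Jag1 had a ratio of 4.58.

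PDGF, angiopoietin and VEGF genes went in both directions in low cells against fibroblast comparison cells, with 4 of 16 higher and 7 lower. The background was 16.1% higher and 11.3% lower of 11721 genes. The list had a median log2 ratio of -0.80. Pdgfa, a ligand, was among the higher ones at 556 and 215 CPM against 47.9 CPM in fibroblast and 135 CPM in endothelial comparison cells. Pdgfb, the ligand of Pdgfrb, was at 181 and 121 CPM in endothelial comparison cells and at 22.0 and 13.0 CPM in low cells. Ligand and receptor were thus higher on opposite sides of this comparison. Angpt2 was at 34.4 CPM in low, 22.7 CPM in high, 2.96 CPM in fibroblast and 232 CPM in endothelial comparison cells. Nrp1, a VEGF coreceptor, was lower in low cells than in both comparison classes, with ratios of 0.341 and 0.104. TGF-beta and BMP genes showed little difference as a group, with 3 of 22 higher and 5 lower and a median of 0.14, equal to that of all genes.

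Basement membrane and fibrillar matrix genes parted in opposite directions. In low cells 13 of 25 basement membrane and adhesion genes were higher and 4 lower than in fibroblast comparison cells, against 2 higher and 17 lower of 28 fibrillar and associated matrix genes. All genes compared had 16.1% higher and 11.3% lower. The collagen IV gene Col4a1 was at 2115 and 1823 CPM in low cells, 549 and 599 CPM in fibroblast and 2435 and 2814 CPM in endothelial comparison cells. Laminin alpha 5 (Lama5) was at 218 and 104 CPM against 1.5 CPM (ratio 108), and its cell surface receptor Bcam at 127 and 184 CPM against 0.702 CPM (ratio 221). Itga7, a laminin-binding integrin also known from skeletal muscle, had a ratio of 50.2. Elastin (Eln), the main protein of elastic layers in arteries, was at 7112 and 4758 CPM in low cells, 1282 and 1165 CPM in high cells and 556 and 568 CPM in fibroblast comparison cells. Its ratio was 10.6 (interval 10.3 to 10.9) for low cells. Col8a1, a vessel wall collagen, was the other higher gene (ratio 4.47), with 196 and 50.5 CPM. Collagen I was far lower in low cells: Col1a1 was at 676 and 1549 CPM, against 8030.1 and 7867 CPM in fibroblast comparison cells. The ratio was 0.139 for Col1a1, 0.0926 for Col3a1 and 0.0101 for the microfibril gene Mfap5.

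Col12a1, the gene deleted in the knockout mice (chr9:79598991-79718831, minus strand, mm10), was at 70.7 and 134 CPM in low cells of sets 1 and 2. In high cells it was at 60.9 and 378 CPM, in fibroblast comparison cells at 40.0 and 166 CPM, and in all other kept cells at 51.9 and 255 CPM. Set 2 was higher in each of these classes, whereas endothelial comparison cells had 19.5 and 9.52 CPM and B cell comparison cells 59.9 and 40.3 CPM. These counts were not used to assign a genotype. Col12a1 overlaps the antisense gene 4930562D21Rik, and where reads outside the deleted stretch would be counted is not known here, so its level does not check the labels. The low-to-fibroblast ratio was 1.77 in set 1 and 0.807 in set 2, opposite directions that pool to 1.15. The high-to-fibroblast ratio was 1.52 in set 1 and 2.28 in set 2. The pooled 2.65 exceeds both, since the classes draw different shares of their UMIs from the sets, and it was 1.94 without the high cell that had the most UMIs of Col12a1.

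Transcription factors were found in both directions, with 9 of 28 higher and 8 lower in low cells than in fibroblast comparison cells (background 16.1% and 11.3% of 11721 genes). Epas1, which encodes the hypoxia factor HIF-2 alpha, was at 255 and 229.9 CPM in low cells and 5.69 CPM in fibroblasts, but at 229 CPM in endothelial comparison cells. Mef2c, a muscle and endothelial regulator, was at 261 and 559 CPM against 18.3 CPM. Foxs1, a forkhead gene of pericytes, was at 145 and 52.2 CPM against 9.35 CPM and had no UMI in endothelial comparison cells. The ratios to fibroblasts of these genes were 42.6, 22.3 and 10.6. Tbx2 and Tcf15 had ratios of 14.8 and 27.3. The hindlimb gene Pitx1 had no UMI in low cells and 19.9 CPM in fibroblast comparison cells.

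Inflammatory genes were mostly lower. Of 24 cytokine, chemokine and adhesion genes, 13 were lower and 3 higher (Ccl19, Il34 and Kitl) in low cells than in fibroblast comparison cells, with a median log2 ratio of -1.78. For each comparison with fibroblasts in this paragraph the background was 16.1% higher and 11.3% lower. The chemokine genes Cxcl1 and Ccl2 were at 1318 and 1023 CPM in low cells, 4214 and 4599 CPM in high cells and 8329.7 and 9399.9 CPM in fibroblast comparison cells. B cell comparison cells had 888 and 1227 CPM of them. Saa3, an acute phase gene, had no UMI in low cells and 404 CPM in fibroblast comparison cells. Immediate early and heat shock genes, known to respond to tissue digestion, had 0 of 18 higher and 3 lower in low cells than in fibroblast comparison cells. The lower count was near the background share. Fos was uneven in low cells, at 981 and 365 CPM. Cell cycle genes were higher in low cells than in fibroblast comparison cells in 14 of 26 and lower in 0. Against all other kept cells, 0 of 28 were higher in low cells and 5 lower, with a median log2 ratio of -0.67 (background 9.88% and 10.9% of 16822 genes). Mki67, a proliferation marker, was at 97.4 and 96.2 CPM in low cells, 19.0 CPM in fibroblast, 198 CPM in endothelial and 386 CPM in B cell comparison cells. Only 15 of the 98 low cells held a UMI of it.

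**Figure D4:**
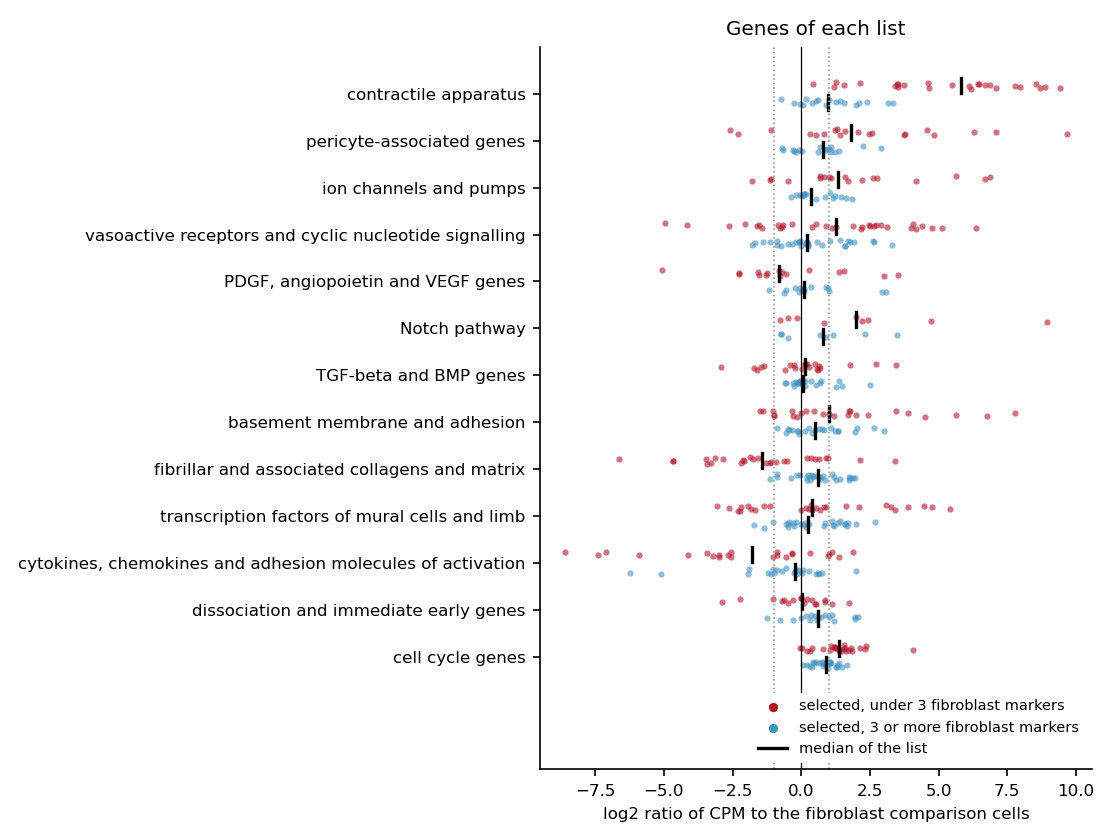
Each point is a gene of 1 of the 13 lists with enough UMIs, placed by its log2 ratio of CPM to the fibroblast comparison cells, for low cells (red) and high cells (blue). Genes without a UMI on one side are set at their bound, black bars are list medians and dotted lines mark 2-fold. Medians for low cells run from -1.78 for cytokine genes to 5.81 for contractile genes, and for high cells from -0.24 to 0.96.

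Endothelial cells are the partners of mural cells, and 78 of them, with 3 or more endothelial genes and fewer than 3 mural or fibroblast markers, served as a second comparison. Low cells had 22 of 25 contractile genes higher and 0 lower, and 15 of 16 pericyte-associated genes higher and 0 lower. The background was 13.4% higher and 13.2% lower of 3761 genes. The Pdgfrb ratio was 50.9 (interval 19.7 to 188). Fibrillar matrix genes, lower than in fibroblasts, were higher than in endothelial cells (17 of 23 higher, 1 lower), while 9 of 12 PDGF, angiopoietin and VEGF genes and 5 of 8 cell cycle genes were lower. Of 3722 genes compared with both classes, 264 were higher in low cells than in either and 127 lower than in either. Among those higher, Ctnna3, a catenin of cell junctions, was at 512 and 370.1 CPM in low cells, 8.02 CPM in high, 2.03 CPM in fibroblast and 1.21 CPM in endothelial comparison cells. Olfr558, an olfactory receptor gene, was at 69.1 and 135 CPM in 38 low cells with a UMI, 0.0501 CPM in fibroblast and none in endothelial comparison cells. It overlaps the antisense gene Gm45688, and the sources used here do not say whether counting used strand. The low-to-fibroblast ratio was 218 for Ctnna3 and 2027 (interval 549.6 to 16916) for Olfr558. Against all other kept cells, 26 of 27 contractile genes were higher in low cells and 0 lower (background 9.88% and 10.9% of 16822 genes).

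All 222 selected cells together pool the low and high cells, so their contractile ratios lie between those of low and high cells by construction. Against fibroblast comparison cells 21 of 26 contractile genes were higher and 0 lower (background 9.93% and 4.82% of 12001 genes), and the Acta2 ratio was 180.3 in place of 690.1. Against all other kept cells 21 of 27 contractile genes were higher and 0 lower (background 7.44% and 11.6%), and 0 of 28 cell cycle genes were higher and 13 lower. Cell cycle genes went the other way against fibroblast comparison cells, with 17 of 26 higher and 0 lower. Against endothelial comparison cells 18 of 25 contractile genes were higher and 0 lower (background 16.6% and 11.2%).

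In the high cells the medians of all 13 lists lay between -0.24 and 0.96 on the log2 scale relative to fibroblasts. Against fibroblast comparison cells 8 of 18 contractile genes were higher and 0 lower, with a median log2 ratio of 0.96 (background 7.17% and 4.39% of 11845 genes). Acta2 was at 80.4 and 126 CPM in high cells, a ratio of 10.1 (interval 8.77 to 11.6) to fibroblast comparison cells and far under the low cells. A few cells carried it: 78 of the 124 high cells had no Acta2 UMI, 5 cells held 223 of the 394 UMIs, and the 12 cells with 3 or 4 fibroblast markers, near the limit, held 171. The 5 cells had 39244, 159809, 24794, 149685 and 169222 UMIs in all, against a high-cell median of 22172. Depth was near that median in the cell with 24794 UMIs and above it in the others. The part of depth was not tested. Without those 12 cells the Acta2 ratio was 6.52 (interval 5.51 to 7.69), and 8 contractile genes were still higher. After thinning it was detected in 13.7% of high cells, 1.64% of fibroblast comparison cells and 1.97% of B cell comparison cells. Of vasoactive and cyclic nucleotide genes, 10 of 32 were higher in high cells than in fibroblast comparison cells and 4 lower. Of pericyte-associated genes 6 of 18 were higher and 0 lower, and of PDGF, angiopoietin and VEGF genes 2 of 16 were higher and 1 lower. Among the higher genes, with smaller ratios than in low cells, Ednra had a ratio of 6.23, Gucy1a1 of 9.77 and Ndufa4l2 of 4.72. Angpt2, whose level was highest in endothelial comparison cells, had a ratio of 7.68. Pdgfrb did not pass the 2-fold limit (1.84). Fibrillar matrix genes, lower in low cells, had 9 of 28 higher and 1 lower in high cells. Col1a1 was at 17816 and 18563 CPM, a ratio of 2.29, and the microfibril gene Mfap4 at 1905 and 2229 CPM, a ratio of 3.41. Several genes were higher in high cells than in both low and fibroblast comparison cells. Hhip, a Hedgehog-binding inhibitor, was at 131 and 121 CPM in high cells, 18.5 CPM in fibroblast comparison cells and 1.6 CPM in low cells. Esm1, an endothelial-secreted proteoglycan gene, was at 32.5 and 34.1 CPM in 20 high cells and had no UMI in low cells. Gata6, a transcription factor gene, was at 51.5 and 28.3 CPM in high, 5.6 CPM in low and 12.2 CPM in fibroblast comparison cells. The heat shock gene Hspa1a was at 3644 and 4874 CPM against 1113 CPM in fibroblast comparison cells. The stem and progenitor antigen gene Ly6a was at 236 CPM in high and 569 CPM in fibroblast comparison cells, with no UMI in the 98 low cells. Against all other kept cells 14 of 28 fibrillar matrix genes were higher in high cells and 0 lower (background 6.19% and 12.2%). Against endothelial comparison cells 25 of 28 were higher and 0 lower (background 16.7% and 13.6%).

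Several large ratios in the high cells rested on 1 cell each. Of 728 Trmu UMIs in high cells, 700 were in 1 cell, and the ratio to fibroblasts was 31.5 with it and 1.21 without it. Mmp13, a collagenase of hypertrophic cartilage, went from 62.3 to 6.78, and Mia, a cartilage gene, from 21.1 to 6.39. In low cells Tas1r1 behaved likewise, with 121 UMIs in 3 cells, 1.57 and 196 CPM, and a ratio of 297 that became 7.36. By contrast the Acta2 ratio of low cells was 581 without its highest cell, and the Pdgfrb ratio 5.68.

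Set directly against the high cells, low cells had 24 of 25 contractile genes higher and 0 lower, 11 of 18 pericyte-associated genes higher and 3 lower, and 20 of 28 fibrillar matrix genes lower and 1 higher. The background was 9.1% higher and 11.9% lower of 6561 genes. Fibroblast markers made this split, so lower levels of genes that fibroblasts express follow in part from it and are a description. The same limit applies to the matrix genes of low cells against fibroblast comparison cells, since both classes were defined by those markers. The one matrix gene higher in low cells was elastin, at a ratio of 4.89 (interval 4.71 to 5.07).

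Myh11, a gene of the rule, was used to look at variation within the 98 low cells. A cell without it was selected only by holding 3 or more of Rgs5, Kcnj8, Abcc9, Notch3, Higd1b and Mcam, so that the rule itself puts pericyte genes into the Myh11-negative cells. The differences in pericyte-associated genes below are therefore a description. Myh11 was detected in 73 low cells (39 of 45 in set 1 and 34 of 53 in set 2), with 13 of these at 1 or 2 UMIs and so near the limit, and in 15 of the 124 high cells. By the rule's own genes, 36 low cells held Myh11 with Kcnj8 or Abcc9, 37 held Myh11 alone, 21 held a channel gene alone and 4 held neither. Cells with a channel gene and no Myh11 were 4 of 45 in set 1 and 17 of 53 in set 2. Depth differed, with a median of 10360 UMIs where Myh11 was detected and 6541 where it was not, and its part was not tested. Of the low cells without Myh11, 19 of 25 came from set 2. The summed CPM of the 7 contractile genes had a median of 13980 (248 to 91500) in cells with Myh11 and 985 (203 to 22535) in cells without, so the ranges overlapped. Comparing CPM of the 73 with the 25 cells, 19 of 25 contractile genes were higher and 0 lower, and 1 of 16 pericyte-associated genes was higher and 5 lower. The background was 12.7% higher and 6.2% lower of 2211 genes. Acta2 was higher by 10.3-fold (interval 8.99 to 11.9; 26.7 in set 1 and 7.62 in set 2), and Cnn1 by 26.8-fold. Elastin was higher by 77.3-fold (interval 51.5 to 122), and laminin alpha 5 by 15.97-fold. In the other direction Steap4, a metalloreductase gene, had a ratio of 0.230, Art3 of 0.315 and Vtn of 0.357. Abcc9 and Kcnj8, genes of the rule, had ratios of 0.302 and 0.368. Gja4 was the pericyte-list gene that was higher with Myh11 (ratio 3.59). Of 9 ion channel genes 3 were higher with Myh11 (Kcnma1, Ryr2 and Trpc6) and 0 lower, and of 11 vasoactive genes Ramp1 was higher and Gucy1a2 lower. Of the genes described above, Gucy1a1 had a ratio of 0.843, Ednra of 1.05, Cacna1c of 0.966 and Heyl of 0.759, within the 2-fold limits. Immediate early genes were higher with Myh11 in 11 of 15 and lower in 0, and cytokine genes in 6 of 12 and 0. Over all 222 selected cells the same split had 88 and 134 cells, 22 of 25 contractile genes higher and 0 lower (background 6.03% and 6.67% of 6569 genes), but 109 of the 134 cells without Myh11 were fibroblast-marker-high.

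**Figure D5:**
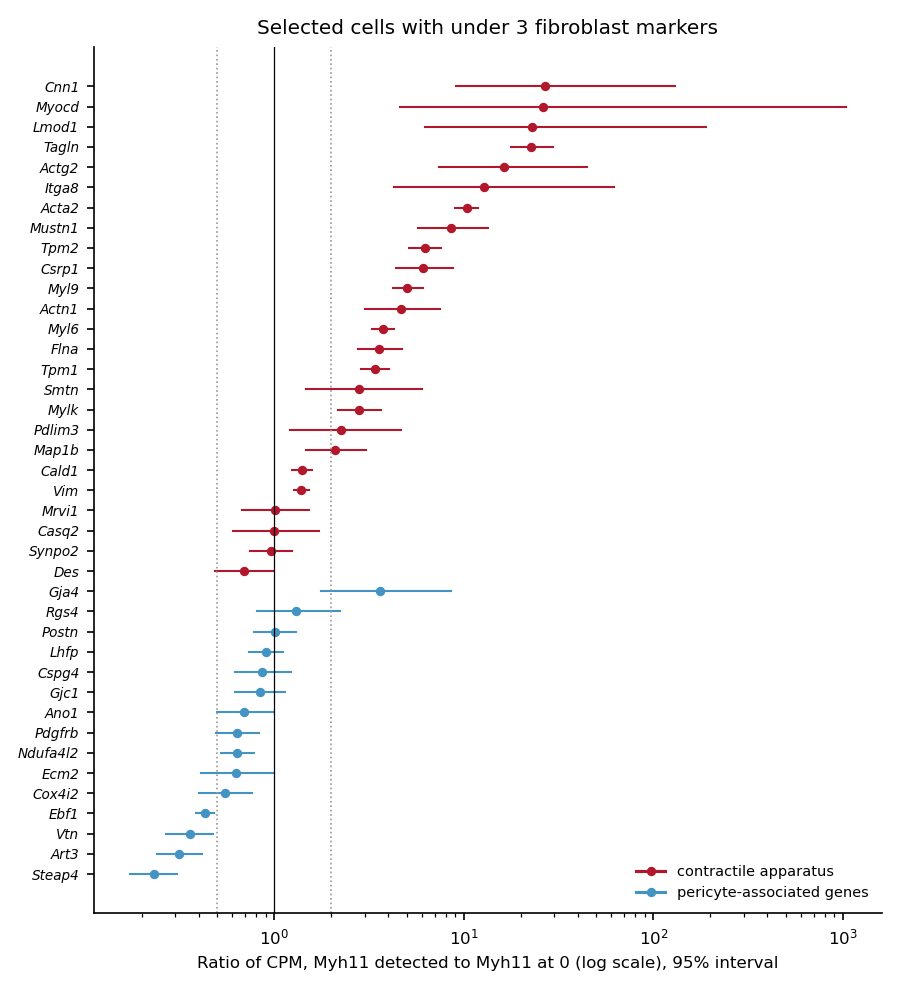
Ratio of CPM between the 73 low cells with a Myh11 UMI and the 25 without, on a log scale, for genes of the contractile (red) and pericyte-associated (blue) lists with enough UMIs and UMIs on both sides, apart from 1 gene of the second list that is not shown. Lines are exact 95% counting intervals and dotted lines mark 0.5 and 2. Contractile genes run from Cnn1 at 26.8 down to Des at 0.688, and pericyte-associated genes from Gja4 at 3.59 down to Steap4 at 0.230.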

How the data were processed

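Single cells of mouse knee joints were measured by droplet RNA sequencing. Per the labels' protocols, reads were processed and libraries merged with Cell Ranger 7.0.0. The submitters' processing notes name mm10. The deposited file holds whole-number UMI counts, not normalised by the authors, for 32285 genes and 24203 barcodes (257619292 UMIs). The sources used here do not say whether intronic reads were included. Coordinates came from GENCODE M21, where 32158 of the gene IDs were found.

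Counts were summed per class of cells and scaled to CPM in Python 3.11.15 with numpy 2.4.6, scipy 1.17.1 and pandas 2.3.3, and drawn with matplotlib 3.10.9. Totals were 1249739 UMIs for low cells, 3742596 for high cells and 39885249 for fibroblast comparison cells, with exact Poisson intervals on levels and exact conditional binomial intervals on ratios. Counts of 0 were set to 3 for bounds. Thinning drew 2000 UMIs per cell (seed 1) and left out shallower cells. The scripts were tested on simulated data. B cell comparison cells had 3 or more B cell markers and Ptprc. No doublet caller was run.

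The members, the 13 gene lists and the markers were chosen with earlier results of these data known. Named genes were the 14 rule genes, Col12a1, the highest, lowest and most abundant of each list against all other kept cells, the 15 leading genes against both comparison classes and the ends of the Myh11 split. Other genes named, and the limit of 3 fibroblast markers, were chosen after their values had been seen. Alternatives varied the cell filters, the rule, the ratio, the UMI minimum, the scaling and the set. Wild type and knockout were not compared, since no label ties cells to a genotype. Values of 1 pericyte-associated gene and of 1 marker list are not reported here, although counts over whole lists include that gene.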

Additional observations from a re-analysis of the deposited data

How the results depend on the processing

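Each alternative changed 1 choice, except that limits on genes and UMIs moved together, and that thinning also changed the kept cells (14480) and the comparison classes (3636 fibroblast and 150 endothelial cells). Of 254 alternative values for the share of selected cells and the counts, 193 stayed within 1.5 times the reported value (the share within its interval) and 61 did not. These counts are from the comparisons of all 222 selected cells. The separate comparisons of low cells and of high cells were not varied by cell filter, ratio, UMI minimum, thinning or scaling. The cause was not tested unless fewer cells, fewer genes or a looser limit shows it. The share of kept cells (1.46%) was 1.67% with at least 1000 genes and 2000 UMIs, 0.666% with 4 mural genes required, 1.15% with no endothelial gene allowed, 0.204% with every cell holding 3 markers of any other class left out, and 0.456% on cells thinned to 2000 UMIs. These alternatives were listed at the outset, while the next 5 were chosen after seeing the data: low cells only (0.646%), high cells only (0.817%), cells with 5 or more fibroblast markers (0.738%), other classes left out except erythroid and myofibre (0.567%), and leaving out each gene's highest cell.

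Against all other kept cells, 1960 lower genes became 844 with any other class left out, and 1256 higher genes became 2405 at a ratio of 1.5 and 1903 with per-cell CPM. Against fibroblast comparison cells, 1192 higher genes became 2071 on thinned cells, 2485 at a ratio of 1.5, 1830 at a minimum of 30 UMIs and 1892 in low cells. The 578 lower genes became 909 without cells above the 95th UMI percentile, 1152 on thinned cells, 1176 at a ratio of 1.5, 1323 in low cells and 1399 with other classes left out except erythroid and myofibre. The 6 higher Notch genes became 3 with any other class left out and 3 in high cells, where 21 contractile genes became 8, as they did in cells with 5 or more fibroblast markers.

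Against endothelial comparison cells, 1196 higher and 811 lower genes became 758 and 532 with 4 mural genes, 139 and 445 with any other class left out, 505 and 497 in low cells, and 451 and 481 with other classes left out except erythroid and myofibre. Higher genes became 558 on thinned cells, and lower genes 529 in set 2, 1557 at a ratio of 1.5 and 1448 at 30 UMIs. In the Myh11 split of all selected cells, 396 higher and 438 lower genes became 30 and 7 with any other class left out, 142 and 89 on thinned cells, 865 and 798 at a ratio of 1.5, 748 and 729 at 30 UMIs, 149 and 284 in high cells, 214 and 150 with other classes left out except erythroid and myofibre, and 262 and 290 without each gene's highest cell. Higher genes became 244 with 4 mural genes. Lower genes became 287 in set 2, 137 in low cells and 752 with the limit at 3 Myh11 UMIs. The 22 contractile genes became 10, 14, 14 and 4 with any other class left out, on thinned cells, in set 2 and in high cells. In cells with 5 or more fibroblast markers, 77 genes were higher in the Myh11 split and 0 of them contractile.

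Some genes changed direction against fibroblast comparison cells. With any other class left out, the ratio was 0.0281 for Mfap4, 0.955 for Hspa1b and 0.596 for Hspa1a. Without cells above the 95th UMI percentile it was 0.946 for Ccne1 and 0.983 for Mmp13. On thinned cells it was 0.677 for Mia, 0.893 for Ccne1, 0.0602 for Mmp13, 0.316 for Mfap4, 0.541 for Trmu, 0.895 for Hspa1b and 0.932 for Hspa1a. Low cells had 0.0394 for Mfap4, 0.618 for Esm1 (counts of 0 set to 3) and 0.459 for Gata6, and high cells 0.695 for Fbxl22 and 0.304 for Sh3bgr. Cells with 5 or more fibroblast markers had 0.962 for Des, 0.988 for Pde3a, 0.246 for Trpc6, 0.396 for Fbxl22 and 0.347 for Sh3bgr. With other classes left out except erythroid and myofibre it was 0.842 for Mia, 0.928 for Col12a1, 0.0242 for Mfap4, 0.814 for Esm1 and 0.605 for Gata6. In the Myh11 split, 4 mural genes gave 1.07 for Cxcl5 and 3.21 for Krtdap, leaving out cells above the 95th percentile 2.93 for Batf2, and set 1 alone 0.663 for Tas1r1 and 5.97 for Batf2. Low cells gave 5.75 for Ptgs2 and 1.92 for Cxcl5. Leaving out other classes except erythroid and myofibre gave 3.39 for Ptgs2, 0.0538 for Tas1r1 and 1.29 for Cxcl5, and leaving out the highest cell gave 3.24 for Batf2.

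No paired analysis was possible because the deposited matrix does not tie cells to the labelled samples. Cells of 1 merged sample are not replicates, so no difference has a replicate check, and intervals cover counting error only. With a median of 9140.5 UMIs per low cell, the lack of a UMI in a cell does not show that the gene is silent there.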
